A study of Mus musculus with 8 samples.

Results

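The genes described here are 35 interferon-stimulated genes of the mouse, chosen by name from the known responses to type I and type II interferon and matched to the deposited count table by their GENCODE M21 symbols. All 35 were found among the 46517 genes of the table, and all 35 had enough reads to be tested. The study asked how the loss of FoxO1 from myeloid cells affects the fatty, inflamed liver, and whole liver RNA was sequenced from 4 MøFoxO1-KO mice (replicates 26 to 29) and 4 WT littermates (replicates 22 to 25). MøFoxO1-KO mice carried floxed FoxO1 alleles (FoxO1 loxP/loxP) and Cre recombinase driven by the Lyz2 (lysozyme M) promoter, which is active in macrophages, monocytes and neutrophils. WT littermates carried the same FoxO1 loxP/loxP alleles without Cre, so they are floxed controls. All 8 mice were C57BL/6 males, received a NASH (nonalcoholic steatohepatitis) diet for 25 weeks from 6 weeks of age until 31 weeks, and were fasted for 16 hours before the liver was taken. In RNA of a whole liver, fewer cells of a type and less RNA per cell cannot be told apart.

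Type I interferons are sensed by the receptor chains Ifnar1 and Ifnar2, and interferon-γ by Ifngr1 and Ifngr2, with the kinases Jak1, Jak2 and Tyk2 bound to their tails. Type I signals assemble a complex with Stat2 and Irf9 that binds the interferon-stimulated response element (ISRE), while interferon-γ acts through the gamma-activated sequence (GAS). The genes induced this way block viral entry, translation and replication, and in the liver hepatocytes, macrophages and endothelium can all express them.

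Levels are given as CPM, the counts scaled to a library of 1000000 reads after TMM correction of the library sizes. MøFoxO1-KO livers were compared with WT livers by edgeR's quasi-likelihood test over 13278 genes with Benjamini-Hochberg adjustment, and a log2 fold change is MøFoxO1-KO minus WT. Calls needed an adjusted P below 0.05 together with a log2 fold change beyond 1.5 in either direction, and the looser limits of an adjusted and of an unadjusted P under 0.05 are named where used. Exact permutation tests compared the group means over all 70 splits of the 8 mice, were two-sided, and cannot give a P below 0.0286. The mice are separate animals. Total counts were between 15253218 and 18025481 per mouse. Foxo1 itself (ENSMUSG00000044167, chr3:52268336-52353221, plus strand) stood at 24.1, 27.99, 18.4 and 27.97 CPM in WT mice 22, 23, 24 and 25 and at 26.2, 18.4, 25.3 and 17.7 CPM in MøFoxO1-KO mice 26, 27, 28 and 29, with overlapping groups and a log2 fold change of -0.17 (SE 0.18, edgeR adjusted P = 0.686). Every liver cell type can contribute Foxo1 transcripts to these values, so they do not check the deletion in myeloid cells.

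No interferon-stimulated gene was called in MøFoxO1-KO livers. The point estimates were mostly above 0 and small: 27 of the 35 genes had a higher and 8 a lower fitted level than in WT livers. Their median log2 fold change was 0.24 (range -0.72 for Rsad2 to 1.23 for Ifi44). Over all tested genes the median was -0.014 and 48.3% were above 0. The GTPases (7 of 7 above 0), the transcription factors (4 of 4) and the pair of Isg15 and Usp18 (2 of 2) were all above 0, whereas the antiviral effectors were split, with 3 above and 5 below 0 (of these 5, Ifit1 was above 0 with DESeq2's size factors, and Ifit1 and Ifit3 were with upper-quartile normalization). By edgeR, 0 of 35 genes passed both limits, against 0.188% of all tested genes, and 0 passed the adjusted P alone, against 0.294%. The smallest adjusted P was 0.201 for Ifi44. At an unadjusted P under 0.05 there were 7 of 35 genes, against 16.7% of all tested genes, a share near the background. Of these, 6 were higher (Irf7, Isg15, Gbp7, Igtp, Ifi44 and Xaf1, against 8.65% of all tested genes in that direction) and 1 was lower (Rsad2, against 8.06%). DESeq2 and limma-voom also gave 0 genes at an adjusted P under 0.05, with 8 and 5 at an unadjusted P under 0.05. The share of all genes at that unadjusted limit is not given for either tool, so the 8 and 5 have no background beside them. At an adjusted P under 0.05 DESeq2 called 4.02% of the genes it adjusted, and 1.22% with the fold limit added.

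The 95% confidence interval of the fold change held 0 for 28 of the 35 genes. Groups did not overlap for 1 of 35 genes, Gbp7, against 9.71% of all tested genes (5.0% with MøFoxO1-KO above and 4.71% with it below). The median rested partly on mouse 29: without it, the median log2 fold change of the 35 genes was 0.11, and without mouse 26 it was 0.35.

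**Figure D1:**
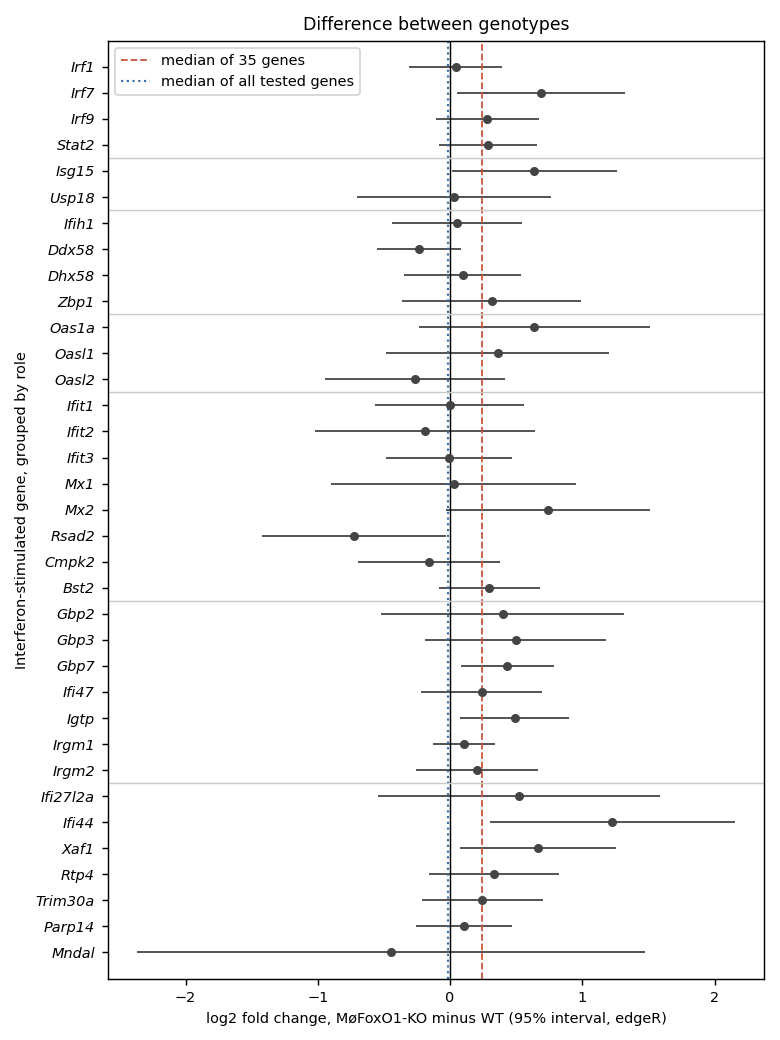
Fitted log2 fold change of MøFoxO1-KO against WT livers (horizontal axis) for each of the 35 genes (vertical axis, separated by role), with points for the edgeR estimate and bars for its 95% interval, n = 4 mice per group. Most points lie to the right of 0, the median of the 35 genes is at 0.24 (dashed line), that of all tested genes at -0.014 (dotted line), and 28 of the 35 bars cross 0.

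The genes share sequence in their promoters that was not used to choose them. RefSeq start sites on GRCm38.p6 were matched by symbol for 27 of the 35 genes (33 windows of 250 bases before a start). Not matched were Usp18, Dhx58, Zbp1, Mx1, Mx2, Ifi27l2a, Rtp4 and Parp14. The core of the ISRE, GAAANNGAA on either strand, was in 16 of 27 genes (59.3%), against 8.18% of all 27025 genes with a window. The GAS element, TTCNNNGAA, which reads alike on both strands, was in 7 of 27 genes (25.9%) against 8.13%. Both motifs can share bases, as they do in Bst2. Stretches that hold matches are printed for genes whose values are given in full (for Oas1a, that with the ISRE cores) and for Ifit1, which has 3 ISRE cores, and Irf1, Igtp and Irgm2, which carry a GAS element. They are written 5′ to 3′ along the gene, and capitals mark the bases inside a match.
Isg15 (chr4:156200866-156200906, minus strand): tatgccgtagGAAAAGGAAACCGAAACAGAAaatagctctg
Oas1a (chr5:120907526-120907555, minus strand): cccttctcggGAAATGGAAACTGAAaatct
Stat2 (chr10:128270267-128270295, plus strand): gcaccctggtTTCAGTTTCctttccctag
Rsad2 (chr12:26456553-26456581, minus strand): tggtccaactTTCATTTTCagaaaacaga
Bst2 (chr8:71537578-71537618, minus strand): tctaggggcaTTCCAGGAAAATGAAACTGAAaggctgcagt
Ifit1 (chr19:34640770-34640823, plus strand): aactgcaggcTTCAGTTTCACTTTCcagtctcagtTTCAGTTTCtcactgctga
Irgm1 (chr11:48871426-48871460, minus strand): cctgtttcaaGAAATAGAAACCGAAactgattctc
Gbp7 (chr3:142530274-142530302, plus strand): tgtgtgcagtTTCAGTTTCagttctccat
Gbp7 (chr3:142530220-142530267, plus strand): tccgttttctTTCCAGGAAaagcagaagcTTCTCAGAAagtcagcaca
Igtp (chr11:58199501-58199540, plus strand): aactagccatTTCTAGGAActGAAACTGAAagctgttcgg
Irgm2 (chr11:58214892-58214931, plus strand): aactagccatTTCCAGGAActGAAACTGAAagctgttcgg
Irf1 (chr11:53769914-53769942, plus strand): acagcctgatTTCCCCGAAatgatgaggc

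Isg15, Ifit1 and Ifit3 (not printed) each had 3 ISRE cores, and cores overlapped one another in Isg15 and, in part, in Ifit1. Igtp and Irgm2 carried a GAS element followed by an ISRE core in the same order and with the same spacing. Irf1 had a GAS element and no ISRE core. The stretches of Irgm1 and Irgm2 precede RefSeq starts that lie inside the longer genes of the count table. A match is a description of these letters and not evidence of binding. The 16 genes with an ISRE core had a median log2 fold change of 0.26 (12 above 0), and the 11 genes without one had a median of 0.24 (7 above 0). Among all tested genes with a window the medians were 0.027 with and -0.023 without an ISRE core. Genes with and without a GAS element had medians of 0.30 (7 genes) and 0.24 (20 genes).

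Among the transcription factors, Irf7, which amplifies the type I response, had the largest fold change, and Stat2, the partner of Irf9, the highest level. Irf7 (ENSMUSG00000025498, chr7:141262706-141266481, minus strand) stood at 20.95, 15.8, 28.6 and 23.5 CPM in the WT mice, in the order 22 to 25, and at 20.2, 44.5, 27.8 and 50.97 CPM in the MøFoxO1-KO mice, in the order 26 to 29, the order kept for every gene that follows. MøFoxO1-KO mice 27 and 29 were above every WT mouse, while 26 and 28 lay inside the WT range. The means were 22.2 ± 5.31 CPM in WT and 35.9 ± 14.3 CPM in MøFoxO1-KO livers (SD, n = 4), for a log2 fold change of 0.69 (SE 0.28, edgeR adjusted P = 0.264, exact permutation P = 0.2). Irf7 shares exon bases with Phrf1, so reads of the shared stretch may belong to either gene.

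Stat2 (ENSMUSG00000040033, chr10:128270576-128292849, plus strand) stood at 41.3, 37.2, 58.6 and 50 CPM in WT and at 47.8, 68.7, 58.4 and 53.1 CPM in MøFoxO1-KO mice. Mouse 27 alone was above the WT range, and the other MøFoxO1-KO mice lay within it. Stat2 had a log2 fold change of 0.28 (SE 0.17, 95% interval -0.086 to 0.65, edgeR adjusted P = 0.425). Irf9, the DNA-binding subunit of that complex, averaged 23.3 ± 4.10 CPM in WT and 28.3 ± 5.45 CPM in MøFoxO1-KO livers (log2 fold change 0.28, edgeR adjusted P = 0.45). Irf1, an early target of interferon-γ with the GAS element shown above, averaged 32.9 ± 6.81 and 33.9 ± 3.94 CPM (log2 fold change 0.041, 95% interval -0.31 to 0.39), and its sign changed when single mice were left out.

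Isg15 encodes a ubiquitin-like protein that is joined to other proteins, and Usp18 removes it and also dampens signalling at Ifnar2. Isg15 (ENSMUSG00000035692, chr4:156199424-156200818, minus strand) stood at 5.82, 4.91, 8.16 and 4.43 CPM in WT and at 6.72, 8.52, 7.17 and 13.99 CPM in MøFoxO1-KO mice. Mice 27 and 29 exceeded all WT mice, with 29 far above the rest, and 26 and 28 lay inside the WT range. Mean levels were 5.83 ± 1.65 and 9.10 ± 3.35 CPM (SD, n = 4), for a log2 fold change of 0.64 (SE 0.28, edgeR adjusted P = 0.286, exact permutation P = 0.114). With an offset for GC content and exon length the log2 fold change was 0.29.

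Usp18 (ENSMUSG00000030107, chr6:121245906-121270917, plus strand) stood at 8.28, 10.6, 9.11 and 3.34 CPM in WT and at 5.43, 7.72, 8.44 and 10.4 CPM in MøFoxO1-KO mice. WT mouse 25 was the lowest of all 8, and the MøFoxO1-KO mice lay inside the WT range. Usp18 had a log2 fold change of 0.030 (SE 0.33, 95% interval -0.70 to 0.76, edgeR adjusted P = 0.974).

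The sensors of foreign or misplaced nucleic acid had point estimates with a median log2 fold change of 0.075. Ddx58, which encodes the RNA sensor RIG-I (ENSMUSG00000040296, chr4:40203773-40239828, minus strand), stood at 17.8, 27.3, 21.5 and 21.1 CPM in WT and at 18.6, 19.1, 20.01 and 16.9 CPM in MøFoxO1-KO mice. WT mouse 23 was the highest and MøFoxO1-KO mouse 29 the lowest, and the groups overlapped. Ddx58 averaged 21.9 ± 3.93 and 18.6 ± 1.33 CPM (SD, n = 4), for a log2 fold change of -0.23 (SE 0.14, 95% interval -0.55 to 0.083, edgeR adjusted P = 0.443). The other 3 sensors had point estimates above 0. Ifih1, which encodes the long double-stranded RNA sensor MDA5, had a log2 fold change of 0.053 (edgeR adjusted P = 0.929), with WT mouse 23 the highest of the 8. Dhx58, encoding LGP2, a regulator of both sensors, had 0.096, and Zbp1, a sensor of Z-form nucleic acid that can start necroptosis, had 0.32 (edgeR adjusted P = 0.846 and 0.646). Dhx58 shares exon bases with its antisense gene Dhx58os.

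The OAS family makes 2′-5′ oligoadenylates that switch on RNase L, although the OAS-like proteins have other antiviral roles. Oas1a (ENSMUSG00000052776, chr5:120896256-120907521, minus strand) stood at 2.17, 1.62, 3.15 and 2.43 CPM in WT and at 1.87, 4.80, 2.26 and 5.73 CPM in MøFoxO1-KO mice. Mice 27 and 29 were above every WT mouse, whereas 26 and 28 lay inside the WT range. The log2 fold change of Oas1a was 0.64 (SE 0.39, 95% interval -0.24 to 1.51, edgeR adjusted P = 0.446).

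Oasl1 (ENSMUSG00000041827, chr5:114923240-114937915, plus strand), which restrains the translation of Irf7, stood at 2.40, 5.87, 4.89 and 4.37 CPM in WT and at 3.51, 6.91, 3.24 and 8.94 CPM in MøFoxO1-KO mice. Again mice 27 and 29 were the highest of the 8, and WT mouse 22 was the lowest. The log2 fold change of Oasl1 was 0.36 (SE 0.38, 95% interval -0.48 to 1.21, edgeR adjusted P = 0.677). Oasl2 had a log2 fold change of -0.26 (edgeR adjusted P = 0.709), with all 4 MøFoxO1-KO mice inside the WT range.

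The antiviral effectors held the member with the lowest fold change, Rsad2, and the one with the highest level, Bst2. Rsad2 encodes viperin, an enzyme that makes a chain-terminating nucleotide. Rsad2 (ENSMUSG00000020641, chr12:26442753-26456452, minus strand) stood at 7.19, 13.8, 10.9 and 8.74 CPM in WT and at 3.45, 5.46, 5.90 and 9.82 CPM in MøFoxO1-KO mice. Mice 26, 27 and 28 were below every WT mouse, and 29 lay inside the WT range. Means were 10.2 ± 2.86 and 6.16 ± 2.67 CPM (SD, n = 4), for a log2 fold change of -0.72 (SE 0.31, 95% interval -1.42 to -0.029, edgeR adjusted P = 0.281, exact permutation P = 0.0857). Cmpk2, the neighbouring nucleotide kinase gene on chromosome 12, had a log2 fold change of -0.16 (edgeR adjusted P = 0.783).

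Bst2 encodes tetherin, which holds budding virus on the cell surface. Bst2 (ENSMUSG00000046718, chr8:71534264-71537437, minus strand) stood at 250.2, 178, 233 and 191 CPM in WT and at 196, 259.9, 282 and 309.5 CPM in MøFoxO1-KO mice. Mice 27, 28 and 29 were above every WT mouse, and 26 lay inside the WT range. The log2 fold change of Bst2 was 0.30 (SE 0.17, 95% interval -0.081 to 0.68, edgeR adjusted P = 0.413), and it was -0.041 with an offset for GC content and exon length. Per kilobase of exon, Bst2 had the highest level of the 35 genes, at 279 CPM per kilobase in WT and 343 in MøFoxO1-KO livers, while the next, Igtp, had 14.3 and 20.1. Bst2 is also a marker of plasmacytoid dendritic cells. Of the other markers listed for these cells, Siglech, Ccr9 and Cox6a2 had 69, 30 and 42 counts over all 8 mice together. Tcf4 and Irf8 had 1468 and 1144 counts. The part of these cells in the level of Bst2 was not tested.

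The Ifit genes, whose proteins bind viral RNA caps and ends, had point estimates close to or below 0. Ifit1 had 8.34 ± 2.78 CPM in WT and 8.32 ± 2.12 CPM in MøFoxO1-KO livers (log2 fold change -0.001, 95% interval -0.56 to 0.56). Ifit3 had 10.1 ± 0.869 and 10.01 ± 3.27 CPM (log2 fold change -0.010), and Ifit2 had 3.36 ± 0.894 and 2.95 ± 1.59 CPM (log2 fold change -0.19). The signs of all 3 changed when single mice were left out, and those of Ifit1 and Ifit3 also with another normalization. Of the dynamin-like Mx proteins, Mx1 had a log2 fold change of 0.027 and Mx2 of 0.74 (edgeR adjusted P = 0.982 and 0.321). Mx2 stood at 3.68, 9.83, 13.4 and 13.4 CPM in the MøFoxO1-KO mice, so that 27, 28 and 29 were above and 26 was below all WT mice, which had 6.45, 6.95, 5.74 and 4.98 CPM.

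**Figure D2:**
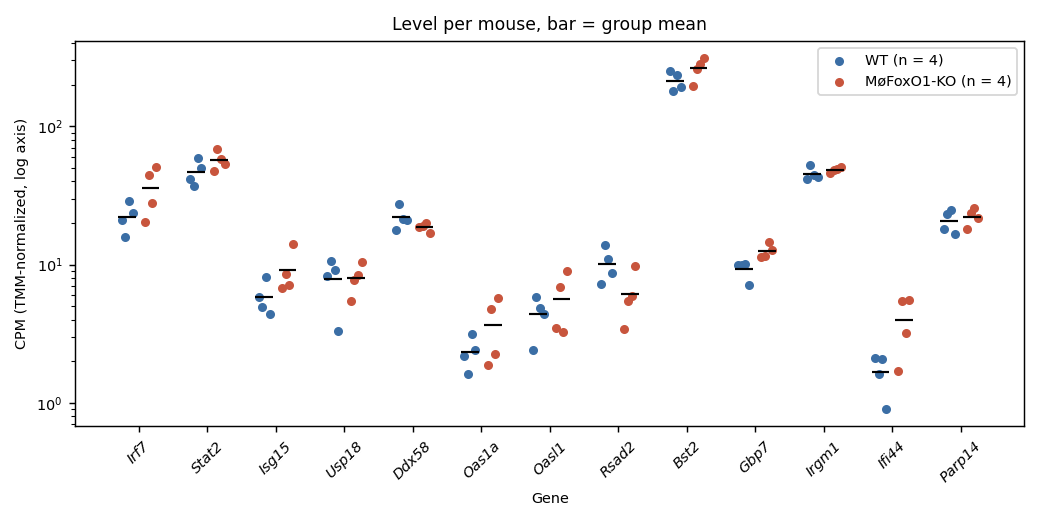
CPM per mouse on a log axis (vertical) for the 13 genes given in full (horizontal), with blue points for the 4 WT and red points for the 4 MøFoxO1-KO mice and a black bar for each group mean. The 2 groups overlap for every gene drawn except Gbp7, and the MøFoxO1-KO points of Irf7, Oas1a, Oasl1 and Ifi44 spread widely.

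The interferon-inducible GTPases, which attack the vacuoles of intracellular pathogens, all had point estimates above 0, between 0.10 and 0.50. Gbp7 (ENSMUSG00000040253, chr3:142530342-142550149, plus strand) stood at 9.93, 9.89, 10.1 and 7.16 CPM in WT and at 11.3, 11.6, 14.5 and 12.7 CPM in MøFoxO1-KO mice. All 4 MøFoxO1-KO mice were above all 4 WT mice, and WT mouse 25 was well below its littermates. Gbp7 averaged 9.28 ± 1.42 and 12.5 ± 1.43 CPM (SD, n = 4), for a log2 fold change of 0.43 (SE 0.16, 95% interval 0.080 to 0.78, edgeR adjusted P = 0.223, exact permutation P = 0.0286, the smallest the test allows). Gbp7 shares exon bases with Gm43802.

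Irgm1, which regulates the other immunity-related GTPases, had the highest mean count of this group. Irgm1 (ENSMUSG00000046879, chr11:48861968-48871683, minus strand) stood at 41.8, 52.1, 44.1 and 42.6 CPM in WT and at 45.7, 48.5, 49.3 and 50.6 CPM in MøFoxO1-KO mice. Its MøFoxO1-KO mice lay close together, inside the WT range that mouse 23 set at the top. The log2 fold change of Irgm1 was 0.10 (SE 0.10, 95% interval -0.13 to 0.34, edgeR adjusted P = 0.666). Igtp averaged 28.97 ± 3.88 CPM in WT and 40.7 ± 10.5 CPM in MøFoxO1-KO livers (log2 fold change 0.49, edgeR adjusted P = 0.234), and its neighbour Irgm2 32.9 ± 7.06 and 37.9 ± 9.98 CPM (log2 fold change 0.20, edgeR adjusted P = 0.666). Igtp and Irgm2 share exon bases in the table, so their counts are not fully separate. Gbp2, Gbp3 and Ifi47 had log2 fold changes of 0.40, 0.50 and 0.24 (edgeR adjusted P = 0.671, 0.452 and 0.603). For Gbp2, the value without mouse 29 was -0.11.

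Of the remaining genes, Ifi44, a cytoplasmic protein of the type I response, had the largest fold change. Ifi44 (ENSMUSG00000028037, chr3:151730922-151749960, minus strand) stood at 2.11, 1.62, 2.08 and 0.910 CPM in WT and at 1.69, 5.46, 3.18 and 5.53 CPM in MøFoxO1-KO mice, from 15 to 81 counts per mouse. Mice 27, 28 and 29 were above every WT mouse, and 26 lay inside the WT range. Ifi44 averaged 1.68 ± 0.561 and 3.97 ± 1.87 CPM (SD, n = 4), for a log2 fold change of 1.23 (SE 0.41, 95% interval 0.30 to 2.15, edgeR adjusted P = 0.201, exact permutation P = 0.0857).

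Parp14 (ENSMUSG00000034422, chr16:35832874-35871544, minus strand), an ADP-ribosyltransferase, stood at 18.1, 23.1, 24.9 and 16.6 CPM in WT and at 18.1, 23.6, 25.5 and 21.7 CPM in MøFoxO1-KO mice. Both groups covered nearly the same range. Parp14 had a log2 fold change of 0.10 (SE 0.16, 95% interval -0.26 to 0.47, edgeR adjusted P = 0.791). Xaf1, a pro-apoptotic partner of XIAP, averaged 5.40 ± 0.972 CPM in WT and 8.55 ± 2.98 CPM in MøFoxO1-KO livers (log2 fold change 0.66, edgeR adjusted P = 0.25), with mice 26, 28 and 29 above every WT mouse. Rtp4, Trim30a and Ifi27l2a had log2 fold changes of 0.33, 0.24 and 0.52 (edgeR adjusted P = 0.486, 0.595 and 0.628). Across the alternatives, Ifi27l2a lay between 0.106 and 0.853.

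Mndal, of the Ifi200 family of DNA-binding proteins, had 88, 39, 288 and 85 counts in the WT mice and 77, 103, 157 and 0 counts in the MøFoxO1-KO mice. The count of 0 in mouse 29 allows up to 3 counts, and Mndal shares exon bases with its relative Ifi203, so the division of reads between them is uncertain. Its log2 fold change of -0.45 had a 95% interval of -2.36 to 1.48.

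**Figure D3:**
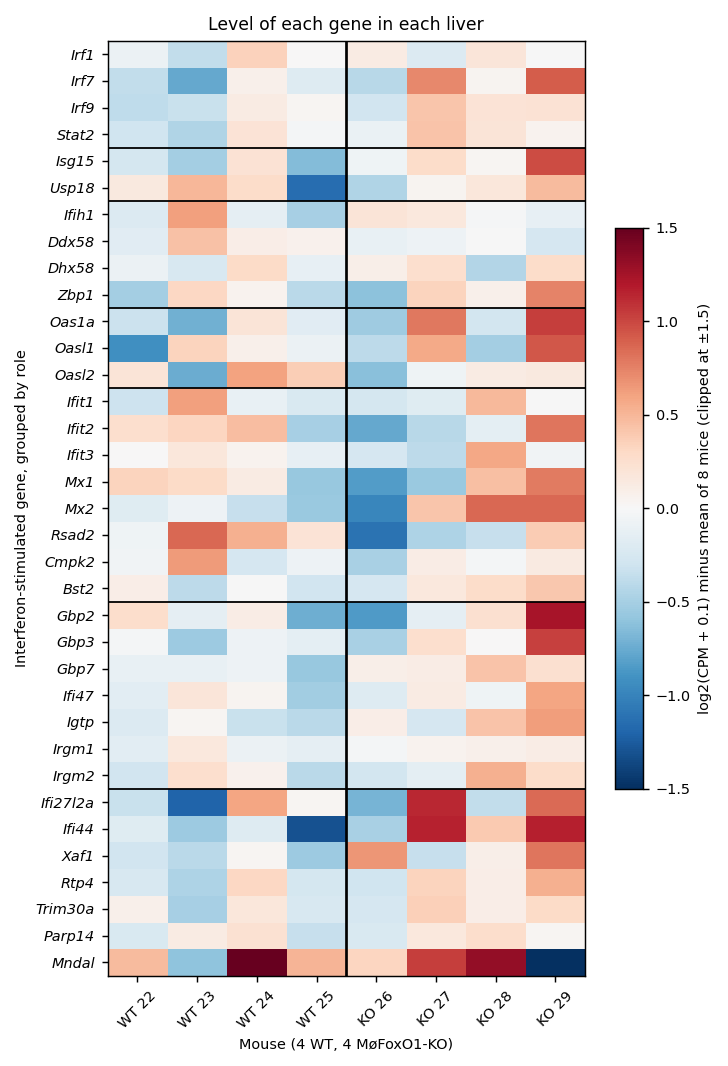
Colour gives log2(CPM + 0.1) of each of the 35 genes (rows, grouped by role) in each of the 8 mice (columns) minus the gene's mean over the mice, clipped at 1.5 in both directions. Mouse 29 is red for most genes, MøFoxO1-KO mouse 26 and WT mouse 25 are blue for most genes, and the WT mice as a group show no uniform colour.

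The mice of each genotype did not move together. Averaged over the 35 genes, the log2 level relative to the 8-mouse mean was -0.13, -0.093, 0.16 and -0.29 in WT mice 22 to 25 and -0.31, 0.17, 0.15 and 0.33 in MøFoxO1-KO mice 26 to 29. The lowest and the highest mouse were thus both MøFoxO1-KO mice, and WT mouse 24 lay among the higher MøFoxO1-KO mice. That average includes Mndal, which had 0 counts in mouse 29. The median over the 35 genes was -0.17, -0.11, 0.098 and -0.24 in the WT mice. In the MøFoxO1-KO mice it was -0.28, 0.15, 0.099 and 0.41, in the same order. Over all tested genes the mean stayed between -0.053 and 0.03 in every mouse, but the TMM scaling holds it near 0. It therefore does not show how far a set of 35 genes would range. Mouse 29 was the highest of the 8 for 16 of the 35 genes, against 15.6% of all tested genes, and mouse 26 was the lowest MøFoxO1-KO mouse for 26 of the 35, against 26% of all tested genes. Among WT mice, 24 was the highest for 16 genes, against 25.2% of all tested genes. WT mouse 25 was the lowest of the WT mice for 15 genes, against 20.5%, and the highest for 0, against 21.9%.

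Expressed as the SD of log2 CPM within a group, the median over the 35 genes was 0.33 in WT and 0.38 in MøFoxO1-KO livers, against 0.28 and 0.25 over all tested genes. The SD was larger in MøFoxO1-KO than in WT livers for 23 of the 35 genes, against 42.1% of all tested genes. The narrowest gene was Ifit3 in WT (SD 0.12) and Irgm1 in MøFoxO1-KO livers (SD 0.061), and the widest was Mndal in both (SD 1.13 and 2.94). These are descriptions over genes of the same 8 livers, which are not independent of each other.

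Markers of several cell types also differed between the mice. All 8 macrophage markers (Adgre1, Cd68, Csf1r, Cd5l, Clec4f, Vsig4, Marco and Timd4) had a higher fitted level in MøFoxO1-KO livers. By edgeR, 5 of them had an unadjusted P under 0.05, against 8.65% of all tested genes in that direction. None had an adjusted P under 0.05. Of 5 monocyte markers tested, 4 were higher and Ccr2 was lower (log2 fold change -0.25, edgeR adjusted P = 0.844). The paper reports less macrophage infiltration by immunostaining in MøFoxO1-KO livers on this diet, and lower Trem2, a marker of NASH-associated macrophages. The 8 markers do not give the number of macrophages. Their summed level ran from 156.5 to 237.7 CPM in WT mice and was 285.5, 593.2, 187.2 and 820.1 CPM in MøFoxO1-KO mice 26 to 29. Mice 27 and 29, with the highest sums, were also the highest for Irf7, Isg15, Oas1a, Oasl1 and Ifi44. The same held for Irf9, Zbp1, Gbp3, Rtp4, Trim30a and Ifi27l2a, but not for the rest of the 35 genes. The share of all tested genes with these mice as the highest pair is not given. Mouse 27 had the lowest Ifit3 of the 8 mice (7.50 CPM) and the lowest Igtp of the MøFoxO1-KO mice (28.5 CPM). It was the highest of the 8 for 4 of the 35 genes, against 11.6% of all tested genes. Mouse 28, with a sum inside the WT range, averaged 0.15 over the 35 genes. Mouse 26 had 5 of the 8 markers inside the WT range, and its sum without Marco was 240.6 CPM beside 236.5 CPM in WT mouse 22. Hepatocyte markers had higher fitted levels as well (6 of 6, median log2 fold change 0.29), and for Apoa1 and Serpina1c all MøFoxO1-KO mice were above all WT mice (log2 fold change 1.07 and 1.49, edgeR adjusted P = 0.0765 and 0.037). Apoa1, Ttr, Serpina1c and Cyp2e1 are short, with 1219 to 1827 exon bases. Of all tested genes with 57 to 2294 exon bases, 69.4% were above 0, with a median of 0.17. Cps1, with 5555 exon bases, had 0.014. The part of gene length in these markers was not tested. Of the tested markers of other cell types, 5 of 5 for T cells and 2 of 2 for natural killer cells were above 0. So were 6 of 6 for sinusoidal endothelium and 5 of 6 for B cells. For dendritic cells they were 3 of 4 (conventional) and 2 of 3 (plasmacytoid, with Bst2). Neutrophil (1 of 3), stellate cell (3 of 6) and cholangiocyte markers (0 of 5) were not mostly above 0. Over all tested genes 48.3% were above 0. The part of these cell types in the values of the interferon-stimulated genes was not tested. Natural killer cell markers were low, with a summed level of 2.18 to 5.18 CPM in WT and 3.45 to 10.7 CPM in MøFoxO1-KO mice, where mouse 29 was again the highest, and Ncr1 and Klrb1c had 30 and 33 counts in all 8 mice together. Mouse 29 also had the highest summed T cell markers, at 9.83 CPM, against 2.91 to 6.68 CPM in WT mice. WT mouse 23 had the lowest summed markers of sinusoidal endothelium, 90.6 CPM against 154.6 to 244.3 CPM in the other 7 mice. It was the highest of the 8 for 7 of the 35 interferon-stimulated genes, against 27.2% of all tested genes, and the lowest for 10, against 25.5%, shares near the background.

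**Figure D4:**
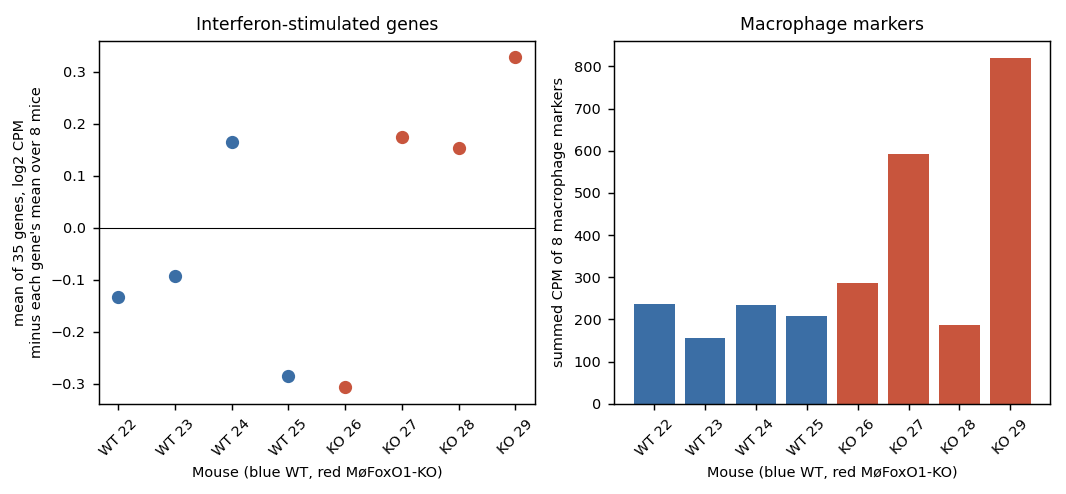
Left, mean over the 35 genes of log2 CPM minus each gene's 8-mouse mean, for each mouse. Right, summed CPM of the 8 macrophage markers in the same mice (WT blue, MøFoxO1-KO red). Mouse 29 is highest in both panels, at 0.33 and 820.1 CPM, while mouse 28 is above 0 on the left with 187.2 CPM on the right.

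Fold changes also depended on the length of the gene across the whole table. The tested genes were divided by summed exon length into 4 groups of equal size. In the group of the shortest genes (57 to 2294 bases) the median log2 fold change was 0.17 and 69.4% were above 0, and in that of the longest (5961 to 84395 bases) it was -0.11 and 34.1% were above 0. The interferon-stimulated genes likewise had their highest median, 0.49, in the shortest group (7 genes) and their lowest, 0.053, in the longest (5 genes). In between, their medians were 0.22 (14 genes) and 0.24 (9 genes), beside -0.01 and -0.062 for all tested genes. Isg15 (756 bases), Bst2 (764 bases) and Ifi27l2a (463 bases) were the shortest, and Ifi44 (6129 bases) was in the longest group. With an offset for GC content and exon length, chosen after seeing the data, 26 of 35 genes were above 0 and the median was 0.20.

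**Figure D5:**
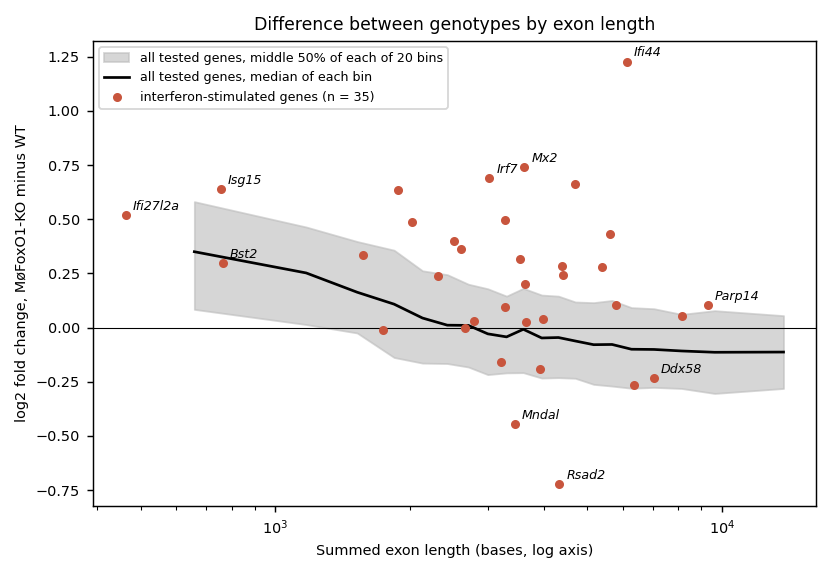
Log2 fold change of MøFoxO1-KO against WT livers (vertical) by summed exon length on a log axis (horizontal). The black line and grey band give the median and the middle 50% of all tested genes in bins of length, which run downwards from left to right, and red points give the 35 genes, with Bst2 close to the line and Ifi44, Irf7 and Mx2 above the band.

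Upstream of these genes, counts of the interferons themselves were at or near 0 in all mice. Ifnb1, the 13 Ifna genes listed, Ifnab, Ifne, Ifnl2 and Ifnl3 had 0 counts in all 8 libraries, which allows up to 3 counts in each by counting error alone. How reads that match several genes were counted is not given, so for the closely similar Ifna genes a count of 0 does not show that transcripts were absent. Ifng had 2, 0, 0 and 0 counts in WT and 1, 1, 2 and 5 counts in MøFoxO1-KO mice, too few to test. Of the 25 ligand and inducing cytokine genes listed, only Il18, which promotes interferon-γ release, was tested (log2 fold change 0.27, edgeR adjusted P = 0.43).

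Of 9 receptor and kinase genes 8 were tested, 1 above and 7 below 0, with a median log2 fold change of -0.11. By edgeR 0 had an unadjusted P under 0.05, against 16.7% of all tested genes. Ifnar1, Ifnar2, Ifngr1 and Ifngr2 had log2 fold changes of -0.095, 0.067, -0.081 and -0.24. Jak1, Jak2 and Tyk2 had -0.14, -0.31 and -0.13, with the smallest edgeR adjusted P at 0.356 for Jak2. Among 12 other STAT and IRF genes, 10 were tested, and by edgeR 0 passed the adjusted P under 0.05, against 0.294% of all tested genes. The unadjusted P was under 0.05 for 4 of the 10 (40%), against 16.7% of all tested genes. Stat5a, a target of growth hormone signalling, was below every WT mouse in all MøFoxO1-KO mice (-0.79, edgeR adjusted P = 0.0851), and Irf5, a factor of inflammatory macrophages, was above (1.17, edgeR adjusted P = 0.11). DESeq2 gave both an adjusted P under 0.05 (0.00281 for Stat5a and 0.00366 for Irf5), and limma-voom gave 0 genes of that list. Of all genes DESeq2 adjusted, 4.02% passed that limit. Irf3 and Irf8 had 0.25 and 0.18 (edgeR adjusted P = 0.366 and 0.856).

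Of 14 upstream sensing genes 11 were tested, with a median log2 fold change of -0.039. By edgeR and DESeq2, 0 passed the adjusted P and 3 the unadjusted P under 0.05, and limma-voom gave 0 and 2. By edgeR, the 3 are 27.3% of the genes tested in this list, against 16.7% of all tested genes. The 3 with the smallest P were Traf3, an adaptor of the interferon pathway (-0.57, edgeR adjusted P = 0.212), Tlr7, a receptor for single-stranded RNA (0.96, adjusted P = 0.255), and Ikbke, a kinase of Irf3 and Irf7 (0.47, adjusted P = 0.274). Of 16 negative regulators 15 were tested, with a median of -0.042. Socs1, which is induced by interferon and blocks Jak kinases, stood at 0.628, 0.3, 0.506 and 1.27 CPM in WT and at 1.34, 1.38, 1.79 and 1.09 CPM in MøFoxO1-KO mice, from 5 to 31 counts (log2 fold change 1.05, SE 0.44, edgeR adjusted P = 0.267), and Ptpn11 and Pias2 had -0.22 and -0.16.

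Beyond the 35 genes, 55 of 60 further interferon-induced genes were tested. Of these, 36 were above and 19 below 0, with a median log2 fold change of 0.062. By edgeR, 1 passed the adjusted P under 0.05 without reaching the fold limit, by DESeq2 3 did (Apol9a, Apol9b and Ifitm3) and by limma-voom 0, with 8, 10 and 7 at an unadjusted P under 0.05. Over all genes, 0.294% passed the adjusted P by edgeR and 4.02% by DESeq2. The 8 genes by edgeR are 14.5% of the 55, against 16.7% of all tested genes, a share near the background. The gene passed by edgeR was Apol9a, an apolipoprotein L gene, which stood at 34.03, 39.7, 27.1 and 27.1 CPM in WT and at 56.6, 55.1, 55.4 and 68.4 CPM in MøFoxO1-KO mice, without overlap (log2 fold change 0.88, SE 0.15, edgeR adjusted P = 0.047). Apol9b is nearly identical to Apol9a, so their reads may be split (0.76, edgeR adjusted P = 0.057). The adjusted P of Apol9b was 0.000133 by DESeq2, and by edgeR 0.0497 with upper-quartile normalization and 0.0233 with no filter on low counts. Ifitm3, which blocks viral fusion, had 222 ± 9.19 CPM in WT and 352 ± 33.5 CPM in MøFoxO1-KO livers, also without overlap (0.66, edgeR adjusted P = 0.052). Across the alternatives, the adjusted P of Apol9a lay between 0.000126 and 0.135, and that of Ifitm3 between 2.03e-06 and 0.272, with DESeq2 giving the smallest for both. The log2 fold change of Ifitm3, a gene of 678 exon bases, lay between 0.317 and 0.726 across the alternatives. With 1 mouse left out it stayed between 0.625 and 0.726.

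Among 33 further interferon-γ-induced genes, 31 were tested, 24 above and 7 below 0, with a median log2 fold change of 0.31. By edgeR, 0 passed the adjusted P under 0.05 and 7 the unadjusted one, limma-voom gave 0 and 8, and DESeq2 gave 2 (Psmb8 and B2m) and 8. The 7 genes by edgeR are 22.6% of the 31, against 16.7% of all tested genes. Over all genes, 0.294% passed the adjusted P by edgeR and 4.02% by DESeq2. Psmb8, a subunit of the immunoproteasome, stood at 28.1, 29.3, 27 and 18.4 CPM in WT and at 35.8, 42.9, 44.3 and 57.4 CPM in MøFoxO1-KO mice, without overlap (log2 fold change 0.81, SE 0.18, edgeR adjusted P = 0.102, DESeq2 adjusted P = 0.00551, and 0.0389 by edgeR with no filter on low counts). B2m, the light chain of MHC class I, had 0.49 (edgeR adjusted P = 0.148, DESeq2 adjusted P = 0.0078), and Psmb10, another subunit of that proteasome, had 0.46 (edgeR adjusted P = 0.189). With the offset for GC content and exon length, B2m had 0.18. Across the alternatives, Psmb10 lay between 0.251 and 0.556.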

How the data were processed

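Whole liver RNA of 8 mice was sequenced from polyadenylated libraries. The authors deposited raw read counts per Ensembl gene without normalization, in the layout of featureCounts with GRCm38 exons, and STAR, featureCounts and mm10 are named in the submitters' processing notes. The strand setting, the versions and the treatment of multi-mapping reads are not given in the sources used here, so reads of the 12 of 35 genes that share exon bases with another gene cannot be assigned with certainty. All 8 count columns were matched to a mouse by its label.

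Symbols were taken from GENCODE M21. Genes were kept by filterByExpr (minimum count 10, minimum total 15), which left 13278, and after TMM scaling the comparison used edgeR 4.0.16 (quasi-likelihood, no covariates, Benjamini-Hochberg over all tested genes) in R 4.3.3. The SD within groups used log2 CPM with a prior count of 2. Exact permutation tests were run over all 70 splits with numpy 2.4.6. Promoter windows came from RefSeq (GRCm38.p6). The tests were checked on simulated data. Total counts of 15253218 to 18025481 per mouse limit precision for genes with few counts, such as Ifi44 and Mx1, and intervals and floors cover counting error only.

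Alternatives were DESeq2 1.42.0, limma-voom (limma 3.58.1), DESeq2's size factors, upper-quartile normalization, other filters, the robust fit, leaving out each mouse, and, chosen after seeing the data, an offset for GC content and exon length. All 35 genes are named. Those with a value for every mouse are, in each role, the gene with the smallest unadjusted P and the one with the highest mean count (13 genes). Of the pathway lists, 13 fixed genes, every gene past an adjusted P of 0.05 and the 3 with the smallest P in each list are named, except for an item that is not reported here. The interferon-stimulated genes, the roles and the lists were chosen with earlier results of these data known.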

Additional observations from a re-analysis of the deposited data

Results flagged for a closer look

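Each group of 4 mice was examined for a mouse far from the other 3, for each of the 35 genes, which makes 70 groups. Chance alone marks about 1 in 20 such groups, and 2 of 70 were marked. Ifit1 in WT livers had mouse 23 as its highest value, with a gap to the nearest mouse of 0.837 of the group's range. Gbp7 in WT livers had mouse 25 as its lowest value, with a gap of 0.92 of the range. Gbp7 is the gene whose groups did not overlap, and without mouse 25 its log2 fold change was 0.33 (edgeR adjusted P = 0.316).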

How the results depend on the processing

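No interferon-stimulated gene passed the adjusted P of 0.05 under any of the 16 alternatives. The number at an unadjusted P under 0.05 was 7 as reported and 2 to 10 when 1 mouse was left out: 4 without WT mouse 23, 2 without WT mouse 25, 4 without MøFoxO1-KO mouse 27, 4 without 28, 3 without 29 and 10 without 26. The median log2 fold change of the 35 genes stayed above 0 in all alternatives, between 0.11 (without mouse 29) and 0.35 (without mouse 26). Of the 35 genes, 24 kept the sign of their fold change in all 16 alternatives. Ifit1 (-0.001) became 0.008 with DESeq2's size factors, 0.032 with upper-quartile normalization, 0.006 with at least 10 counts in every mouse and 0.031 with limma-voom. Ifit3 (-0.010) became 0.015 with upper-quartile normalization and Mx1 (0.027) became -0.098 with limma-voom. With the offset for GC content and exon length, Bst2 became -0.041, Il18 -0.058 and Ifnar1 0.016. The causes were not tested. With 1 mouse left out, the sign also turned in some cases for Irf1 (-0.062 to 0.18), Usp18 (-0.22 to 0.21), Ifih1 (-0.083 to 0.33), Ifit1 (-0.18 to 0.26), Ifit2 (-0.62 to 0.001), Ifit3 (-0.25 to 0.11), Mx1 (-0.30 to 0.25), Cmpk2 (-0.27 to 0.077), Gbp2 (-0.11 to 0.65), Mndal (-0.84 to 0.34), Ifnar2 (-0.011 to 0.17), Ifngr1 (-0.21 to 0.058) and Irf8 (-0.092 to 0.64).

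Apol9a lost its adjusted P under 0.05 with DESeq2's size factors (0.0502), limma-voom (0.0574), the offset (0.129) and without any 1 of 6 mice (0.0922 to 0.135). Its log2 fold change was then 0.89, 0.89, 0.70 and 0.80 to 0.92, beside 0.88 as reported. Requiring at least 10 counts in every mouse left 34 of the 35 genes, without Mndal. With a prior count of 0.5 the median SD was 0.33 in WT and 0.39 in MøFoxO1-KO livers. Adding 50 bases after the start, 18 of 27 promoters held an ISRE core (66.7%) against 9.76% of all genes, and 7 held a GAS element against 9.55%. No paired analysis was possible because the groups share no replicate numbers.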

Other observations

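Of the 55 further interferon-induced genes tested, 4 had all MøFoxO1-KO mice above all WT mice and 1 had them below, against 5.0% and 4.71% of all tested genes, shares near the background. Among them are 2 genes named after their values were seen. Eif2ak2, which encodes the double-stranded RNA-dependent kinase PKR, was lower in all MøFoxO1-KO mice than in any WT mouse (log2 fold change -0.45, edgeR adjusted P = 0.193), and Ifi35 was higher in all MøFoxO1-KO mice (0.53, edgeR adjusted P = 0.208). Ido1, a tryptophan-degrading enzyme of the interferon-γ response, and Trex1, a DNase that limits the sensing of cytosolic DNA, had 0 counts in all 8 mice. The strand setting and the treatment of multi-mapping reads are not given, so these counts do not show that the transcripts were absent. Il27, a cytokine of myeloid cells, was also named after its values were seen. It had 4, 0, 3 and 1 counts in WT mice 22 to 25 and 0, 1, 1 and 12 counts in MøFoxO1-KO mice 26 to 29, too few to test.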
